A study of Mus musculus with 9 samples.

Results

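The short hairpin RNAs shRela-1 and shRela-2, which both target Rela, were compared directly with each other in senescent mouse fibroblasts. The comparison used 6 of the 9 libraries of the series, namely the 3 of shRela-1 and the 3 of shRela-2, paired by the replicate number in their titles, and all genes of the count table. The cells were mouse embryonic fibroblasts of the C57BL/6 strain, connective tissue cells cultured from embryos. All groups had been made senescent by gamma irradiation and were infected at day 10 after it with a lentivirus that carried a hairpin, so both groups compared here share the irradiation, the infection and the loss of Rela. The other 3 libraries carried a scrambled hairpin (shScr); they entered no test and are quoted only to place a level. Their titles name another dataset of the study, so a difference in library batch and the lack of a Rela hairpin cannot be told apart in them. Whether the replicates are separate cultures is not stated in the labels, and the p-values reflect only how far these libraries spread, which may be technical.

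Rela encodes p65, the transactivating subunit of the transcription factor NF-kB, which is held in the cytoplasm by IkB proteins until the IKK complex marks these for degradation. Free NF-kB then switches on genes of chemokines, cytokines and its own inhibitors, and in senescent cells it is known for driving much of the secreted protein programme. A short hairpin RNA is processed by Dicer into a small RNA whose guide strand, held by an Argonaute protein, leads to the loss of the transcript it pairs with. Guide strands are also known to lower other transcripts that match only their seed, the short stretch near the 5′ end, most often in 3′ UTRs.

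The libraries held 51071566 to 64445863 counts each, and 15063 of 24062 genes had enough counts to be tested. The first principal component of log2 CPM (50.9% of the variance; CPM is the count scaled to library size with TMM factors) separated the hairpins, and the second (21.8%) set both libraries of replicate 1 apart from the rest. The 14 fibroblast markers were high throughout, from 53090 to 64260 CPM in sum, and 10 of them were lower and 1 higher with shRela-2 (median log2 difference -0.20). The 20 markers of macrophages and blood summed to between 482 and 781 CPM. Markers of neural, cartilage, endothelial, epithelial and fat cells summed to 294 CPM or less for each list in each of the 6 libraries. Muscle markers reached more, from 234.8 to 827.3 CPM, and are described below with the contractile genes. The defining genes Epcam, Cdh1, Myod1, Myog and Adipoq had too few counts to be tested.

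The transcript that both hairpins target stood at overlapping levels in the groups, well below the scrambled hairpin. Rela, on chromosome 19 from 5637483 to 5648130 on the plus strand of mm10, measured 14.1, 13.6 and 13.2 CPM in shRela-1 replicates 1 to 3 and 14.7, 13.5 and 13.3 CPM in shRela-2 replicates 1 to 3, against 83.2 to 86.7 CPM in shScr. As a share of the shScr mean these were 16.0 ± 0.556% and 16.3 ± 0.888% (SD, n = 3). The difference of shRela-2 minus shRela-1 was 0.02 on the log2 scale with a 95% interval from -0.12 to 0.16, that is from -7.91% to 12.0% (adjusted p = 0.805 by the quasi-likelihood test of edgeR). Of the genes tested, 13900 had a smaller p than Rela. The protein was not measured.

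Short sequence words in 3′ UTRs went with the direction of the difference, and both also occur in Rela. The 7-letter words AGGTGTA, called word 1 here, and GAAGCTA, called word 2, had been noticed in an earlier look at these data, so what follows is a description with no test. Each occurs once in the main Rela transcript, inside the coding sequence. Such places are not rare: of 11949 genes with neither word in the 3′ UTR, 812 held word 1 and 1642 word 2 upstream of it. The following windows show the words in capitals with 10 bases on either side, read from GENCODE M21 transcripts on mm10. Word 1 lies at chr19:5641473-5641479 and its window crosses an exon junction, and word 2 lies at chr19:5647255-5647261, both on the plus strand. Hairpin sequences were not used here, and whether a guide strand pairs with either word was not tested.
Rela, word 1: gaagacattgAGGTGTAtttcacggga
Rela, word 2: ggagtaccctGAAGCTAtaactcgcct

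Genes with word 1 in the 3′ UTR tended to be higher with shRela-2, and genes with word 2 lower. A 3′ UTR was found for 14173 of the genes tested. Word 1 was in 1150 of them (8.11%), of which 46.1% were called higher and 16.1% lower with shRela-2 (median log2 difference 0.15). Word 2 was in 1274 (8.99%), of which 16.5% were called higher and 44.9% lower (median -0.15). The 11949 genes with neither word were balanced, with 25.7% higher, 26.3% lower and a median of 0.00. These shares are to be read against the background of all genes tested, of which 25.6% were called higher and 26.2% lower at an adjusted p under 0.05.

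The medians lay farther from 0 with 2 copies than with 1, which the few genes with more copies did not continue. With 1 copy of word 1 (1056 genes) the median was 0.14, and with 1 copy of word 2 (1155 genes) it was -0.14. With 2 copies of word 1 (88 genes) the median was 0.25, and with 2 copies of word 2 (109 genes) it was -0.28. With 3 or more copies the medians were 0.13 (6 genes) and -0.20 (10 genes). Genes with neither word but 3′ UTRs at least as long as the median of the word 1 genes (2672 bases) had a median of 0.03. Word 1 followed by A (281 genes) gave 0.24, and the shifted word GGTGTAA without word 1 (535 genes) gave 0.16. The matching forms of word 2 did not differ in this way, since word 2 followed by A (392 genes) gave -0.16 and AAGCTAA without word 2 (926 genes) gave 0.00. Outside the 3′ UTR the words gave unlike values. The 812 genes that held word 1 only upstream of the 3′ UTR had a median of 0.06, and the 1642 with word 2 only there had -0.12. Among 11261 words of 7 letters present in at least 500 genes each, word 2 had the lowest median of all, and word 1 the second highest after GGTGTAA, which overlaps it. The middle 95% of the word medians ran from -0.01 to 0.04. Both words had been picked from these same data, so their ranks follow in part from that choice and are no separate support.

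**Figure D1:**
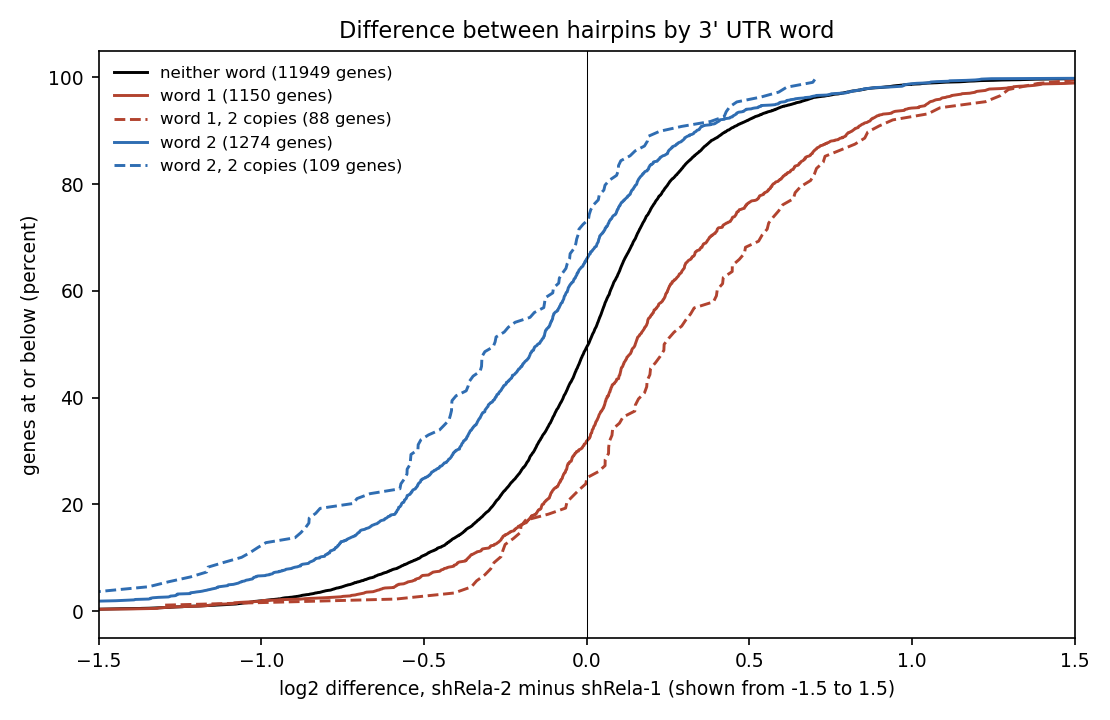
Cumulative share of genes (percent, vertical axis) by log2 difference of shRela-2 minus shRela-1 (horizontal axis), for genes whose 3′ UTR holds word 1 (red), word 2 (blue) or neither (black), with dashed lines for 2 copies. Around the median the red curves lie to the right of the black one and the blue curves to its left, with medians of 0.15, -0.15 and 0.00 for word 1, word 2 and neither.

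The sites printed here come from genes that were picked because they hold a word and differ strongly. That they share the word with Rela is therefore not a result. The flanking bases differ from gene to gene. All lie in 3′ UTRs and are written on the strand of the gene. The first 4 genes were higher with shRela-2 and hold word 1, and the last 4 were lower and hold word 2.
C1d (chr11:17267005-17267031, plus strand): tgtagactggAGGTGTAaggacatttg
Rtn4 (chr11:29742480-29742506, plus strand): ggtatgttctAGGTGTAttgtgattta
Lipa (chr19:34493825-34493851, minus strand): atgacgtcgaAGGTGTAcattgctctc
Slc4a7 (chr14:14798388-14798414, plus strand): tgccttaaatAGGTGTAtatgagcagt
Tnfsf18 (chr1:161504870-161504896, plus strand): tgtccagaatGAAGCTAcaagactttt
Rab3c (chr13:110057933-110057959, minus strand): agccaagataGAAGCTAcatgtgataa
Tspan2 (chr3:102769023-102769049, plus strand): caggatattaGAAGCTAaaataatttt
Nuf2 (chr1:169498709-169498735, minus strand): tagttatattGAAGCTAatggaagtac

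Word 1 was more frequent among the large differences toward shRela-2 and word 2 among those toward shRela-1, while most of these genes held neither. Over all genes with a 3′ UTR, 8.11% held word 1, 8.99% word 2 and 84.3% neither. Of the 211 genes with a 3′ UTR that were called over 2-fold higher with shRela-2, 29.9% held word 1, 6.64% word 2 and 66.4% neither. Among the 310 that were called over 2-fold lower, 6.45% held word 1, 26.5% word 2 and 69.4% neither. Genes with neither word were thus a smaller share of the large differences than of all genes.

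In all, 7800 genes differed between the hairpins (51.8% of those tested), 3851 of them higher with shRela-2 (25.6%) and 3949 lower (26.2%). In 6708 of them the libraries of the hairpins did not overlap. A call itself favours such genes, and the count of them over all genes tested is not given here. Most of the differences were small, with 5886 of the called genes under 1.5-fold, and 233 genes were higher and 340 lower by over 2-fold. With the replicate numbers left out of the model 5790 genes were called. Because calls are this common, sizes and the level in each library are given beside them.

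**Figure D2:**
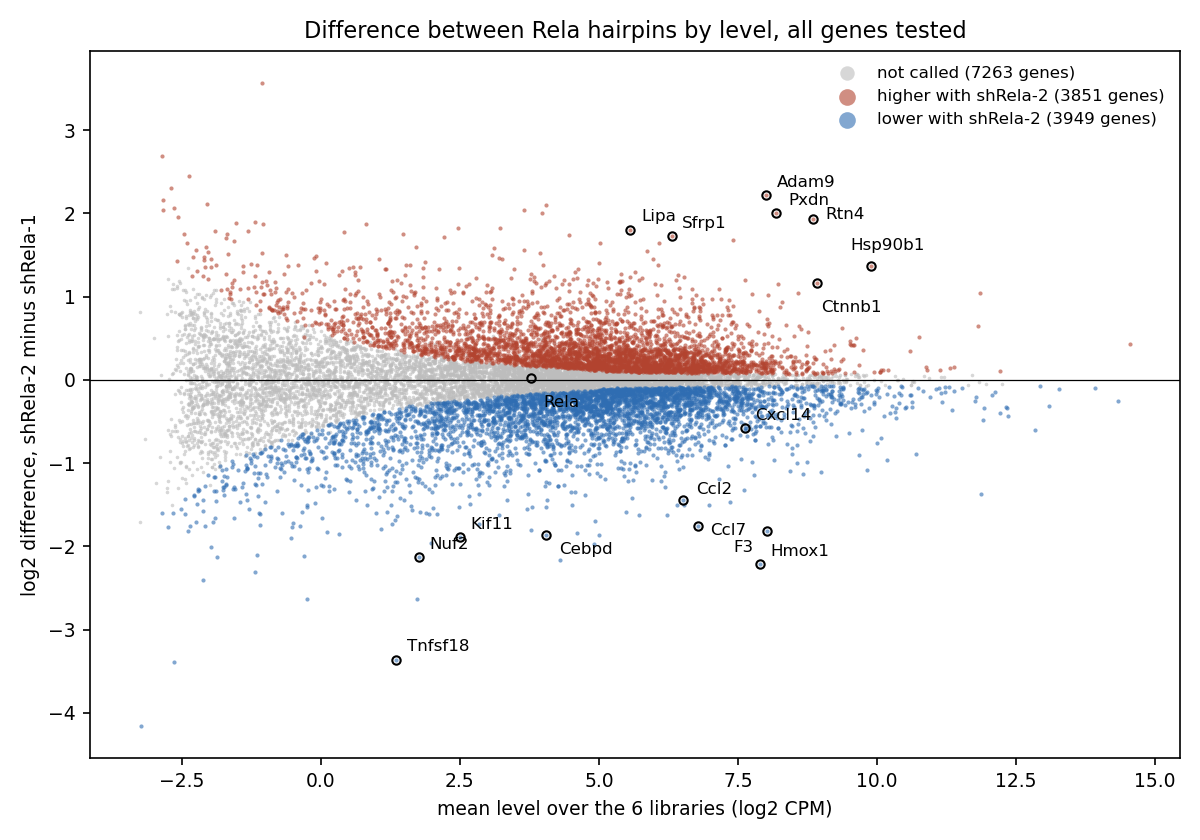
Log2 difference of shRela-2 minus shRela-1 (vertical axis) against the mean log2 CPM over the 6 libraries (horizontal axis) for the 15063 genes tested, in red where called higher and blue where called lower with shRela-2. Rela sits at 0.02, while Adam9 and Rtn4 stand near the top and Hmox1 and F3 near the bottom among well expressed genes.

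The genes highest with shRela-2 included membrane proteins, matrix enzymes and endoplasmic reticulum proteins. Adam9, a membrane-bound metalloprotease that sheds surface proteins, measured 121, 117 and 119.9 CPM with shRela-1 and 572, 544 and 549 CPM with shRela-2. Its log2 difference was 2.22 ± 0.03 (SE, as throughout), with the smallest adjusted p of all named genes (9.90e-20, edgeR's quasi-likelihood test). The highest and lowest genes were picked among those whose libraries did not overlap between hairpins, so this separation is not a result. Pxdn, the peroxidase that crosslinks collagen IV, measured 148, 139 and 147 CPM against 622, 575 and 544 CPM (2.00 ± 0.04, adjusted p = 2.90e-18). Neither 3′ UTR holds one of the words.

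Rtn4, which encodes the reticulon Nogo of the endoplasmic reticulum, measured 233, 234 and 239 CPM with shRela-1 and 911, 898 and 882 CPM with shRela-2 (log2 difference 1.93 ± 0.03). Lipa, the lysosomal acid lipase that frees cholesterol from its esters, measured 21.9, 27.0 and 27.6 CPM against 83.7, 91.2 and 91.9 CPM (1.81 ± 0.04). Sfrp1, a secreted antagonist of Wnt ligands, measured 35.7, 50.3 and 45.8 CPM against 126, 166 and 144 CPM (1.73 ± 0.04). In each of these the lowest shRela-2 library lay over 2-fold above the highest shRela-1 library. They were picked by the size of their difference and for not overlapping, so this is not a result. The 3′ UTRs of Rtn4, Lipa and Sfrp1 hold word 1, and that of Lipa holds word 2 as well.

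Abundant transcripts were among them. Hsp90b1, the chaperone GRP94 of the endoplasmic reticulum, measured 612, 579 and 599 CPM with shRela-1 and 1574, 1530.4 and 1501 CPM with shRela-2 (log2 difference 1.37 ± 0.03). Ctnnb1, which encodes beta-catenin, measured 328, 325 and 324 CPM against 734, 734 and 718 CPM (1.16 ± 0.03). Other genes that the naming rule took among the highest or those with the smallest p were C1d, Ndufb2, Upk1b, Slc4a7, Glt8d2, Man2a1, Plekha3, Iffo2 and the cornified envelope genes Lce1h and Lce1f, at 1.64 to 2.10. Lce1h and Lce1f belong to a family of near-identical copies whose reads may be split. Exons of Ndufb2 overlap Braf on the opposite strand, those of Rtn4 overlap Eml6, those of Glt8d2 overlap Tdg and those of Ctnnb1 overlap Ulk4, and without strand in the libraries such reads cannot be told apart.

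The genes lowest with shRela-2 included a cytokine, a heme enzyme, mitotic genes and chemokines. Tnfsf18, the TNF family ligand GITRL, measured 3.85, 15.2 and 9.43 CPM with shRela-1 and 0.308, 1.63 and 0.871 CPM with shRela-2. Both hairpins varied several-fold by replicate number and the difference was large within each pair (log2 difference -3.36 ± 0.13, adjusted p = 8.11e-14). Hmox1, the heme oxygenase that is a classical stress-inducible gene, measured 524, 555 and 457 CPM against 109, 116 and 106 CPM (-2.21 ± 0.04, adjusted p = 4.89e-19). F3, which encodes tissue factor, the trigger of coagulation, measured 518, 468 and 479 CPM against 137, 132 and 145 CPM (-1.82 ± 0.04). The 3′ UTRs of Hmox1 and F3 hold neither word, and that of Tnfsf18 holds word 2.

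Cebpd, a transcription factor of the acute phase response, measured 37.3, 33.5 and 25.6 CPM with shRela-1 and 9.68, 8.82 and 7.73 CPM with shRela-2 (log2 difference -1.87 ± 0.07). Papss2, which makes the sulfate donor for proteoglycans, measured 58.3, 59.4 and 61.5 CPM against 15.2, 14.5 and 15.7 CPM (-1.98 ± 0.04). Both 3′ UTRs hold word 2. Rab3c, Tspan2, Nuf2, Ccdc81, Kif11, Nrk, Macc1, Rras2 and Scp2 were the other non-chemokine genes that the rule took, at -2.64 to -1.62. Exons of Cebpd overlap Spidr on the opposite strand.

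Of the 15 highest genes 8 held word 1 and 7 neither word, and 2 of those with word 1 (Ndufb2 and Lipa) also held word 2. Of the 15 lowest 7 held word 2, 1 (Nrk) held word 1 and 7 held neither. Over all genes with a 3′ UTR 8.11% held word 1, 8.99% word 2 and 84.3% neither. Beside the scrambled hairpin, the shRela-1 mean was the farther from shScr in 13 of the 15 highest genes. In 11 of the 15 lowest the shRela-2 mean was the farther. These genes were picked by the size of their difference, and shScr may differ by library batch. The shScr mean lay between the means of the hairpins in 13 of the highest and 14 of the lowest. Hmox1 (169.8 to 195 CPM in shScr) and F3 (227 to 263 CPM) were, with Rab3c and Ccdc81, the 4 among the lowest for which shRela-1 was the farther. No test was made on these placements.

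**Figure D3:**
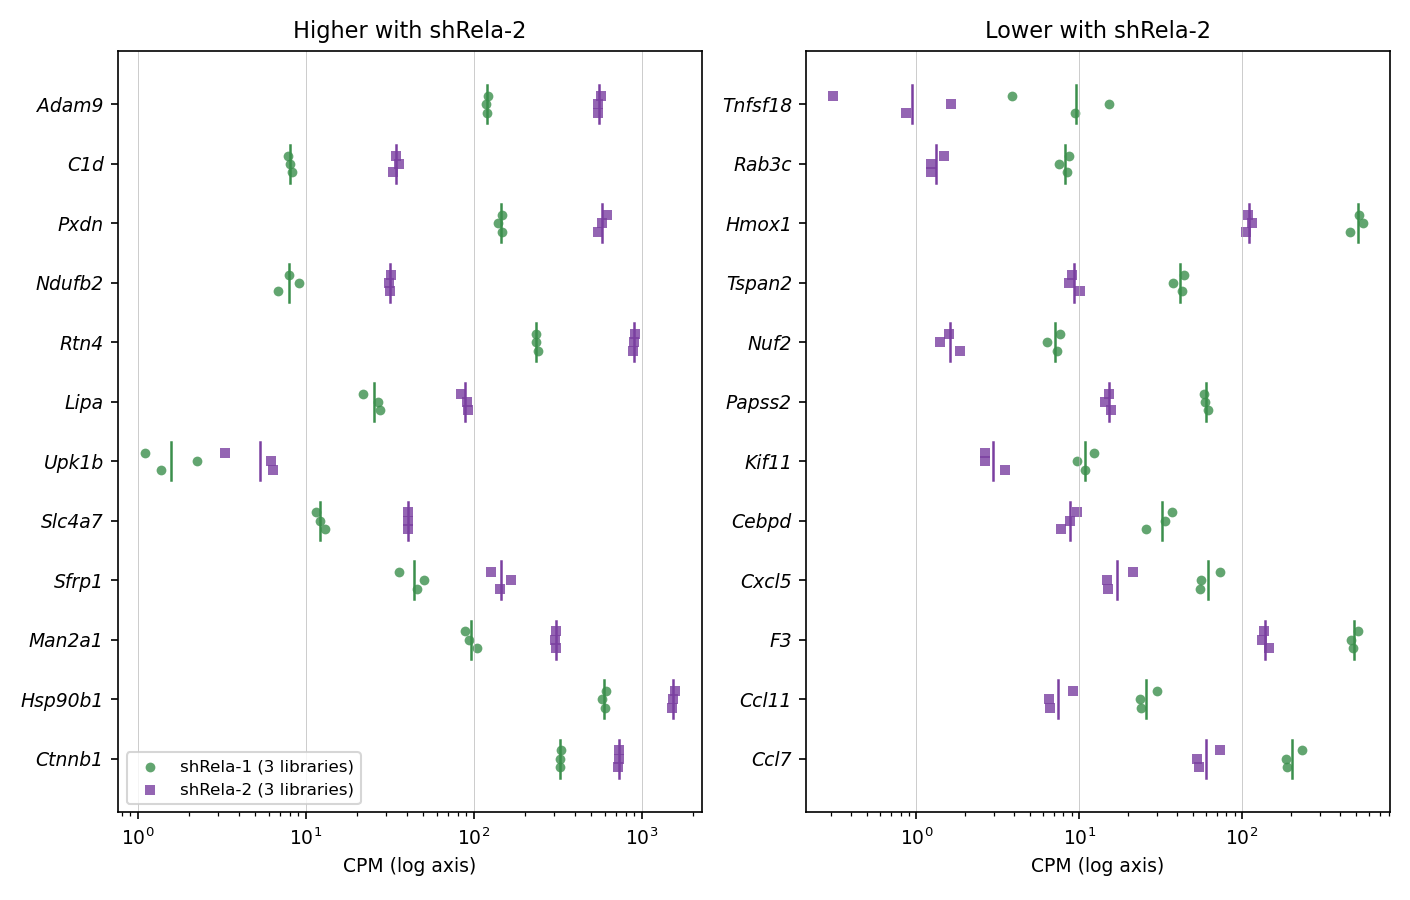
CPM on a log axis in each of the 3 shRela-1 libraries (green circles) and 3 shRela-2 libraries (purple squares) for 12 genes higher and 12 genes lower with shRela-2, with short lines at the group means. The libraries of the hairpins do not overlap in any of the 24 genes, because the rule that picked them required this.

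Among the gene lists, that of mitosis had the lowest median. Of 52 mitosis genes, 51 were called lower and 1, the checkpoint gene Bub3 (0.20), higher, with a median log2 difference of -0.91, against 26.2% lower and a median of 0.00 over all genes tested. Smc2, a condensin subunit, measured 29.3, 24.6 and 29.2 CPM with shRela-1 and 9.34, 9.76 and 11.4 CPM with shRela-2 (-1.44 ± 0.07). Top2a, the topoisomerase of mitotic chromosomes, measured 39.8, 34.6 and 36.2 CPM against 18.3, 16.3 and 19.2 CPM (-1.04 ± 0.06), and Anln, which encodes the cytokinesis protein anillin, fell by 0.91 ± 0.04 relative to shRela-1. All of these are low levels next to the fibroblast genes above. Of the list, 47 members hold neither word in the 3′ UTR, and all 47 were called lower.

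The DNA replication list moved the same way, with 37 of 45 members lower, 2 higher (Rfc1 and Ung) and a median of -0.51. Mcm3, a subunit of the replicative helicase, measured 27.5, 29.0 and 27.6 CPM with shRela-1 and 13.2, 12.3 and 14.3 CPM with shRela-2 (-1.08 ± 0.07). Rpa1, which binds single-stranded DNA, measured 71.6, 71.5 and 72.1 CPM against 35.9, 33.2 and 35.9 CPM (-1.03 ± 0.04), and Rpa3, its small partner, differed by -1.52 ± 0.10. In sum the list reached 874.7 to 926.1 CPM in the shRela-1 libraries, 659.3 to 692.4 CPM in those of shRela-2 and 748.9 to 774.0 CPM in shScr. The nuclear lamina gene Lmnb1, known to be lost in senescence and named here after its value was seen, measured 16.9, 14.3 and 13.6 CPM against 7.53, 7.49 and 8.88 CPM (-0.90 ± 0.09). A difference in the number of dividing cells and a difference in RNA per cell cannot be told apart in such bulk samples.

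Regulators of G1 and targets of p53 were called lower more often than all genes tested, and higher about as often. Over all genes tested 25.6% were higher and 26.2% lower. In the list of the E2F family and G1 regulators 7 of 28 were higher (25%) and 13 lower (46.4%), with a median of -0.09. Ccnd2 and Ccnd3, cyclins of the D type, differed by -0.90 ± 0.03 and -0.60 ± 0.03, and Tfdp1, the dimerization partner of E2F factors, by -0.53 ± 0.04. Of 34 p53 targets 9 were higher (26.5%), for example Zmat3 (0.96 ± 0.03) and Trp53inp1 (0.79 ± 0.04). A further 20 were lower (58.8%), for example Btg2 (-0.45 ± 0.03), and the median was -0.18. Cdkn1a, which encodes the cell cycle inhibitor p21 that the study is about, measured 1013, 1115 and 1039 CPM with shRela-1 and 1077, 1256 and 1110.0 CPM with shRela-2. These ranges overlap. The difference of 0.12 ± 0.03 was called with the replicate block (adjusted p = 0.00233, edgeR's quasi-likelihood test) and not without it (0.175), nor without replicate 2 (0.0889).

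Genes of the cell cycle lists shared promoter words. RefSeq promoters (GRCm38.p6, 250 bases before to 50 after the start, both strands searched) were matched for 11166 genes tested. The E2F words TTTGGCGC, TTTCCCGC, TTTCGCGC and TTTGCCGC were in 16 of 37 DNA replication promoters (43.2%), against 4.35% of all. The CHR words TTTGAA and TTCGAA, bound by the MuvB complex, were in 29 of 39 mitosis promoters (74.4%), against 16.2% of all. Such words are known for genes of these lists and are described here without a test. The following windows show each word in capitals, in some as its reverse complement, on the strand of the gene.
Mcm3 (chr1:20820277-20820302, minus strand): acttccgtgGCGGGAAAacttgggaa
Mcm6 (chr1:128359799-128359824, minus strand): gcgtatgctTTTGGCGCgaaaagtgc
Smc2 (chr4:52439067-52439090, plus strand): ctttccatgTTCAAAacggtatag
Anln (chr9:22389171-22389194, minus strand): gcgctgaaaTTCAAAttttgaacg

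Many targets of NF-kB differed between the hairpins, while Rela itself did not pass the test. Of 44 canonical targets 27 were lower with shRela-2, 3 (Cflar, Cxcl10 and Irf1) higher and 14 not called, with a median of -0.35. Csf1, the growth factor of macrophages, measured 1356, 1285 and 1312 CPM with shRela-1 and 659, 563 and 642 CPM with shRela-2 (-1.09 ± 0.03), with 871 to 965 CPM in shScr. Tnfaip2, a TNF-inducible gene, measured 86.7, 102 and 87.5 CPM against 57.2, 59.6 and 59.7 CPM (-0.64 ± 0.04). Il6, the interleukin of the acute phase, named after its value was seen, measured 5.08, 6.40 and 4.69 CPM against 1.29, 2.67 and 1.58 CPM (-1.56 ± 0.14). The targets with no call included other subunits of NF-kB, with Nfkb1 at 0.04 ± 0.04, Nfkb2 at -0.07 ± 0.04 and Relb at -0.05 ± 0.08, and the feedback inhibitor Nfkbia was at -0.17 ± 0.06 (adjusted p = 0.0321). Words of NF-kB (GGANTTTCC and GGAATTCCC) were in 11 of 33 promoters of the list, or 33.3%, against 1.85% of all.
Csf1 (chr3:107760606-107760632, minus strand): ggccttgagGGAAAGTCCctaggggcc
Tnfaip2 (chr12:111442565-111442591, plus strand): tccgccagcGGATTTTCCgcggttgcg

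Of the chemokines, secreted attractants of leukocytes, 16 of 24 were lower with shRela-2, 3 higher (Cxcl9, Cxcl10 and Cxcl12) and 5 not called, with a median of -0.85. Ccl2, the main attractant of monocytes, measured 156, 154 and 146 CPM with shRela-1 and 59.3, 56.3 and 51.5 CPM with shRela-2 (-1.45 ± 0.04), with 218 to 253 CPM in shScr. Its neighbour Ccl7 measured 232, 187 and 189 CPM against 73.3, 53.2 and 54.1 CPM (-1.76 ± 0.04). Both genes lie on chromosome 11, Ccl2 from 82035571 to 82037453 and Ccl7 from 82045712 to 82047525 on the plus strand. Cxcl5, an attractant of neutrophils, measured 73.2, 56.1 and 55.6 CPM against 21.3, 14.9 and 14.98 CPM (-1.86 ± 0.04), and the eosinophil attractant Ccl11 differed by -1.80 ± 0.07. The rule that named these 4 genes required that their libraries not overlap between hairpins. None of their 3′ UTRs holds a word.

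Other chemokines were less even. Cxcl14, the chemokine of interest in the study, measured 255, 239 and 231 CPM with shRela-1 and 154, 177 and 153 CPM with shRela-2 (-0.58 ± 0.04, adjusted p = 5.19e-10). Cxcl1, a neutrophil attractant named after its value was seen, measured 3.38, 4.51 and 0.670 CPM against 0.809, 1.09 and 0.338 CPM, and the ranges overlapped (-1.86 ± 0.21). Cxcl10, an interferon-inducible attractant of T cells, measured 2.27, 2.14 and 2.21 CPM against 4.91, 5.25 and 1.35 CPM, so that its direction differed between pairs (0.68 ± 0.24, adjusted p = 0.0241). Without the replicate block 13 members were called lower and 1 higher.

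Macrophage markers moved with these lists, though their libraries overlapped. Of 20 markers of macrophages and blood, 13 were lower with shRela-2 and 7 not called (median -0.28), and 2 were lower without the replicate block. Their sums were 562, 781 and 644 CPM with shRela-1 and 482, 749 and 536 CPM with shRela-2. Emr1, which encodes the macrophage antigen F4/80, measured 16.1, 26.8 and 21.4 CPM with shRela-1 and 9.68, 18.5 and 13.1 CPM with shRela-2 (-0.65 ± 0.07), with overlapping ranges. Csf1, the ligand such cells live on, is given above. The part of macrophage RNA in the chemokine, NF-kB and complement results was not tested.

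Components that carry the signal to NF-kB differed little as a list, though single members differed. Of 39 members of the NF-kB and IKK list 13 were higher with shRela-2 (33.3%), 6 lower (15.4%) and 20 not called, with a median of 0.02. Over all genes tested 25.6% were higher and 26.2% lower. Without the replicate block 8 members were higher and 4 lower. Ikbkb, the kinase IKK-beta that marks IkB for degradation, measured 20.2, 20.6 and 21.7 CPM with shRela-1 and 49.3, 46.0 and 49.3 CPM with shRela-2 (1.21 ± 0.05). In shScr it stood at 49.3 to 52.5 CPM, within or just above the shRela-2 range. Traf6, a ubiquitin ligase of the Toll-like and IL-1 receptor pathways, differed by 0.84 ± 0.06, and Cyld, a deubiquitinase that restrains IKK, by 0.73 ± 0.05. Among the lower members were the inducible regulators Nfkbiz (-0.97 ± 0.04) and Tnfaip3 (-1.12). Of the 30 members with neither word, 7 were higher and 4 lower.

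Genes of cholesterol synthesis were mostly lower with shRela-2. Of 26 genes 19 were lower, 3 higher and 4 not called, with a median of -0.54. Sqle, squalene epoxidase, measured 139, 124 and 133 CPM with shRela-1 and 64.2, 61.8 and 65.2 CPM with shRela-2 (-1.05 ± 0.04). Sc5d, which acts on late sterols, measured 120.0, 93.4 and 110.0 CPM against 57.5, 44.7 and 47.7 CPM (-1.11 ± 0.04), and Cyp51, the lanosterol demethylase, differed by -0.88 ± 0.03. Hmgcs1, which makes the precursor of mevalonate, and Srebf2, the master regulator of the pathway, differed by -0.54 ± 0.03 and -0.43 ± 0.03. All 3 pairs of libraries pointed lower in 21 of the 26 genes and higher in 3. Over the 15063 genes tested these counts were 5331 and 5205. Of 18 promoters of the list 17 hold CCAAT (94.4%, against 42.3% of all), and 2 hold the sterol response words TCACCCCAC or TCACCCCAT (11.1%, against 0.905% of all).
Hmgcs1 (chr13:119690205-119690231, plus strand): gtcaccgtcTCACCCCACttcccaggt
Srebf2 (chr15:82147098-82147124, plus strand): gacgcaccaTCACCCCATgagccgctt

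Of 19 genes of fatty acid synthesis 5 were higher (26.3%), such as Gpam (0.93 ± 0.07) and Elovl6 (0.60 ± 0.05). Another 10 were lower (52.6%), such as Fads1 (-0.72 ± 0.04). Over all genes tested 25.6% were higher and 26.2% lower. Glycolysis was lower in 13 of 23 genes and higher in 2 (median -0.21), and 7 were lower without the replicate block. Slc2a1, the glucose transporter GLUT1, measured 343, 221 and 236 CPM with shRela-1 and 153, 121 and 134 CPM with shRela-2 (-0.95 ± 0.05). Oxidative phosphorylation genes were higher in 20 of 48 and lower in 6 (3 without replicate 2), by little (median 0.08), with Uqcrh of complex III at 0.32 ± 0.03. Ribosomal protein genes, many of which have near-identical pseudogene copies, were lower in 23 of 47 and higher in 1 (median -0.07), and 15 were lower without the block and also without replicate 2.

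Around Hmox1, genes of heme and iron were called lower more often than all genes tested, and some were higher. Bach1, the heme-sensing repressor of Hmox1, measured 34.5, 35.7 and 38.1 CPM with shRela-1 and 69.9, 67.3 and 70.3 CPM with shRela-2 (0.94 ± 0.04), the opposite direction to Hmox1. Fth1, the ferritin heavy chain, measured 758, 843 and 728 CPM against 456, 533 and 475 CPM (-0.67 ± 0.03). In the iron and heme list 13 of 27 were lower (48.1%) and 5 higher (18.5%), with a median of -0.11. Over all genes tested 26.2% were lower and 25.6% higher. Cpox of heme synthesis (-0.87 ± 0.06) and the iron regulator Hfe (-1.11 ± 0.08) were among the lower members. Of 37 genes of NRF2 and oxidative stress 19 were lower (51.4%) and 7 higher (18.9%), with a median of -0.07.

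Stress genes of the endoplasmic reticulum were called lower more often than all genes tested, and higher about as often. Hsp90b1 was higher with shRela-2 (above), as was Sdf2l1, a partner of the chaperone BiP, at 11.1, 11.2 and 9.45 CPM with shRela-1 and 22.1, 25.6 and 21.5 CPM with shRela-2 (1.12 ± 0.07). Trib3 and Ddit3, targets of the integrated stress response, were lower, at -1.24 ± 0.07 and -0.68 ± 0.04. In the whole list 10 of 37 were higher (27.0%) and 18 lower (48.6%), with a median of -0.14. Over all genes tested these shares were 25.6% and 26.2%. The lysosome list held 15 higher and 20 lower of 47 (11 lower without the replicate block), from Lipa and Gusb (0.85 ± 0.04) to Glb1 (-0.80 ± 0.04), the beta-galactosidase used as a stain of senescence, and Ctsb (-0.43 ± 0.03).

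Contractile and myofibroblast genes were lower with shRela-2 in 21 of 27 cases and higher in 1, with a median of -0.34. Mylk, the kinase of myosin light chain, measured 232, 196 and 222 CPM with shRela-1 and 96.4, 84.9 and 103 CPM with shRela-2 (-1.19 ± 0.04). Here shScr stood at 98.2 to 113 CPM, close to shRela-2. Myh9, nonmuscle myosin, measured 2304, 2208 and 2263 CPM against 1195, 1173 and 1295 CPM (-0.89 ± 0.03), with shScr at 1913 to 2053 CPM, close to shRela-1. Ankrd1, a target of YAP and of mechanical load, differed by -1.09 ± 0.04. The 9 muscle markers tested had 3 lower and 1 higher, and their summed level was 456.9 to 827.3 CPM in the shRela-1 libraries against 234.8 to 380.8 CPM, carried largely by Des and Acta1.

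Matrix genes were lower in 35 of 58 and higher in 10 (median -0.14), and 21 were lower and 3 higher without the replicate block. The fibroblast markers, many of them matrix genes, moved alike, and their part in this was not tested. Lamc1, a laminin chain, differed by -0.63 ± 0.03, while Thbs1, thrombospondin, at 19910.4 to 21024 CPM in the shRela-1 libraries against 27230.3 to 28864 CPM, was higher (0.44 ± 0.03). Proteases and their inhibitors were higher in 21 of 41 and lower in 10 (8 and 5 without the block). Timp2, an inhibitor of metalloproteases, measured 1415, 1590.4 and 1351 CPM against 2024, 2241 and 1953 CPM (0.52 ± 0.03). The shares of the protease list were 51.2% higher and 24.4% lower, against 25.6% and 26.2% over all genes tested. Calls in both directions are therefore not particular to secreted products. Of 50 cytokines and growth factors 8 were higher, for example Pdgfc (0.79 ± 0.04), and 22 lower, for example Fgf7 and Fgf10 (-0.90 ± 0.04 and -1.02 ± 0.05), with 11 lower without the block. The IGF list held 9 lower and 3 higher of 16, and complement and acute phase 15 lower and 1 higher of 29 (5 and 5 lower, respectively, without the block).

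**Figure D4:**
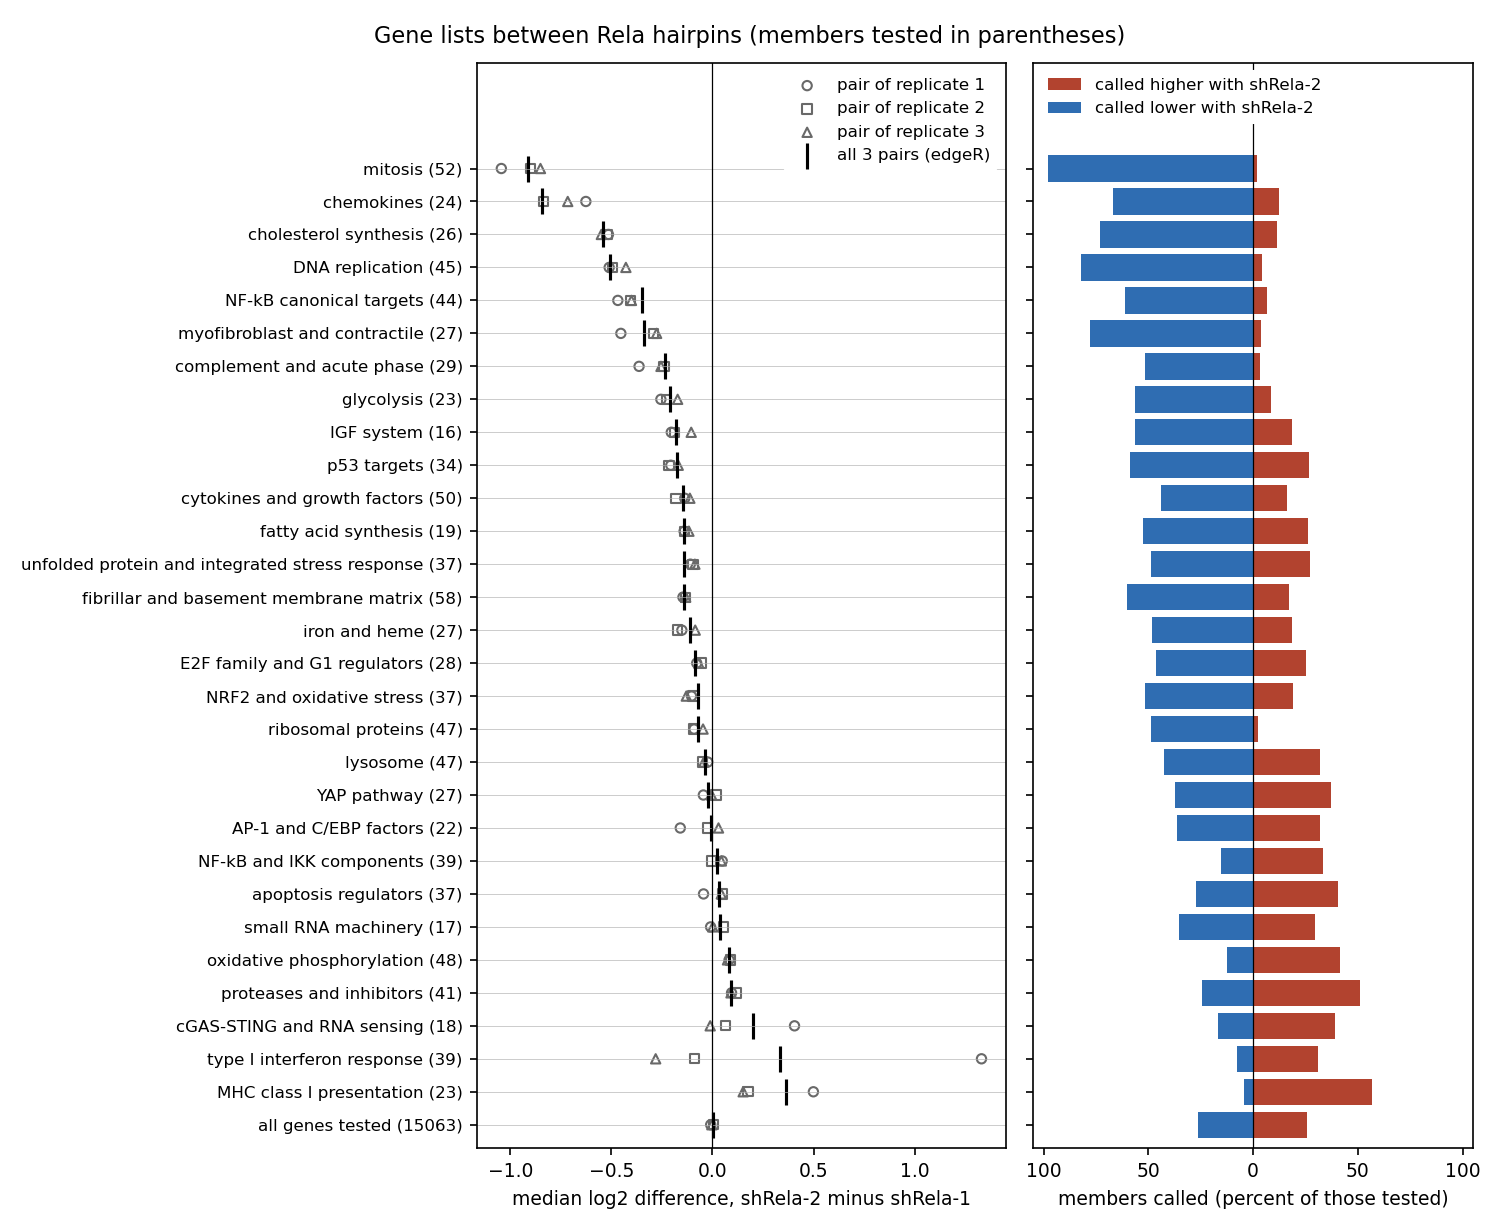
Left, the median log2 difference of shRela-2 minus shRela-1 of each gene list (bar, fit over all 3 pairs; open symbols, each pair of libraries), with the number of members tested in parentheses. Right, the percent of members called higher (red) and lower (blue), where the background over all genes is 25.6% and 26.2%; the mitosis list stands lowest, and the pairs of the interferon list fall on both sides of 0.

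The remaining lists lay near the background or were divided. YAP pathway genes were 10 higher and 10 lower of 27, AP-1 and C/EBP factors 7 and 8 of 22, apoptosis regulators 15 and 10 of 37. The higher AP-1 and C/EBP factors numbered 4 without the replicate block, without replicate 2 and without replicate 3. Fosl2 and Cebpb, transcription factors of these families, differed by -0.72 ± 0.04 and -0.51 ± 0.06, and Cflar, an inhibitor of caspase activation, by 0.68 ± 0.04. In the machinery of small RNAs, which hairpins also use, 5 of 17 were higher and 6 lower (3 lower without the block). Ago1, an Argonaute protein, measured 40.9, 42.6 and 43.1 CPM with shRela-1 and 70.6, 69.0 and 70.2 CPM with shRela-2 (0.73 ± 0.04), and Drosha, the nuclear processor of microRNA precursors, differed by -0.43 ± 0.04.

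Of 23 genes of antigen presentation by MHC class I, 13 were higher with shRela-2 (56.5%) and 1, Pdia3, lower (4.35%), with a median of 0.36. Over all genes tested 25.6% were higher and 26.2% lower. Without the replicate block 7 members were higher. The summed level of the list was not higher, at 4780, 4663 and 4594 CPM with shRela-1 and 4780, 4524 and 4413 CPM with shRela-2. Erap1, which trims peptides for these molecules, measured 13.4, 15.2 and 15.02 CPM with shRela-1 and 28.5, 27.6 and 23.8 CPM with shRela-2 (0.88 ± 0.07). H2-T23, whose reads can be split with close paralogs, differed by 0.91 ± 0.06. The core subunits B2m and H2-D1 were not called. Exons of Erap1 overlap Cast on the opposite strand. Without replicate 1 the median of the list was 0.14, with 9 higher and 2 lower.

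The type I interferon response depended on the pair of libraries. Of 39 genes 12 were called higher and 3 lower with a median of 0.33, but the median was 1.33 in the pair of replicate 1, -0.09 in that of replicate 2 and -0.28 in that of replicate 3. The summed level of the list was 904.1, 1290.0 and 1154 CPM with shRela-1 and 1733, 1166 and 996.9 CPM with shRela-2, and in shScr it was 1102 to 1292 CPM. Replicate 1 was thus the lowest of the shRela-1 libraries and the highest of the shRela-2 libraries. In that pair 37 of 39 genes were higher with shRela-2, against 14 and 9 in the others. Isg15, a ubiquitin-like interferon product, measured 35.9, 71.9 and 59.7 CPM against 137, 53.5 and 47.1 CPM (0.37 ± 0.27, not called). Without replicate 1 the median was -0.16, with 6 members higher and 18 lower.

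Sensors of nucleic acids showed part of the same dependence on replicate 1. Ifih1, the RNA sensor MDA5, measured 12.2, 17.1 and 14.4 CPM with shRela-1 and 35.6, 21.4 and 18.2 CPM with shRela-2 (0.74 ± 0.15, adjusted p = 3.26e-04), and this call was lost with DESeq2 (adjusted p = 0.121). Its difference was 1.54 in the pair of replicate 1 and 0.32 and 0.34 in the others, and 0.33 without replicate 1. Tmem173, which encodes the adaptor STING, measured 25.4, 21.8 and 20.04 CPM against 47.6, 38.2 and 37.8 CPM (0.88 ± 0.05). Of the 18 genes of the cGAS-STING and RNA sensing list 7 were higher and 3 lower, with medians of 0.41, 0.06 and -0.01 in the pairs of replicates 1, 2 and 3. The lower members numbered 5 without replicate 1, 2 without replicate 2, 0 without replicate 3, 1 without the block and 0 with DESeq2.

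**Figure D5:**
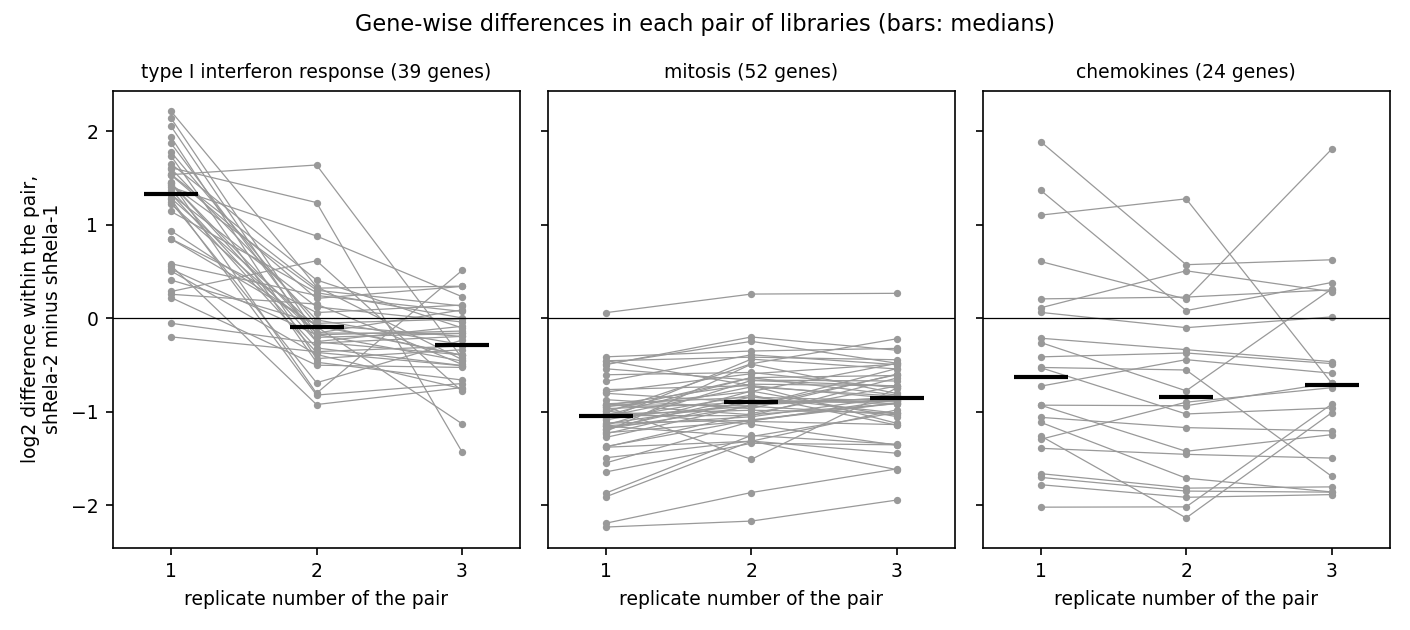
Log2 difference of shRela-2 minus shRela-1 within each pair of same-numbered libraries (horizontal axis) for the genes of 3 lists, with thin lines joining the values of 1 gene and bars at the medians; replicate numbers have no order. The interferon genes stand high in the pair of replicate 1 (median 1.33) and near or below 0 in the others (-0.09 and -0.28), whereas mitosis and chemokine medians are below 0 in all 3 pairs.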

How the data were processed

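The series measured RNA of irradiated mouse embryonic fibroblasts in 9 samples, of which 6 entered the tests. The deposited values are raw counts per gene symbol, 1 column per sample. Per the submitters' processing notes the tools were featureCounts 1.4.6, Subread, TopHat2 2.0.14 and Bowtie2 2.2.6, with build mm10 and settings not given in the sources used here. RNA came from RNeasy Micro columns and libraries from the TruSeq v2 kit, which does not mark strand, per the labels' protocols. A count of 2 was commoner (5378 values) than 1 (1851) or 3 (1210), as when both mates of a fragment add to a count; this was not settled.

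Counts were tested in edgeR 4.0.16 (R 4.3.3) with filterByExpr, TMM scaling and glmQLFit on replicate number plus hairpin, testing both directions, with Benjamini-Hochberg adjustment over all 15063 genes; a gene with an adjusted p under 0.05 is called. Differences are log2, shRela-2 minus shRela-1. CPM values were scaled over all 9 libraries. Replicate numbers from the titles were used as a block because deviations from the group means correlated in all same-numbered pairs (0.412, 0.329 and 0.229; from -0.318 to 0.047 between different numbers). No libraries of 1 hairpin were copies of each other (chi-square over degrees of freedom from 11.9 to 34.4).

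The comparison, the 37 gene lists (8 of cell type markers) and the words were chosen with earlier results of these data known. The genes named are Rela, Cdkn1a and Cxcl14, the 15 highest and 15 lowest called genes whose mean log2 CPM reached 1 and whose hairpins did not overlap (clone-number symbols passed over), the 8 smallest p in each direction, up to 4 called members per list (2 per marker list) and up to 6 per 3′ UTR word; genes named to spell out a small count, carriers of a printed promoter word, and Il6, Cxcl1, Lmnb1, Isg15, Nfkb1, Nfkb2, Relb, Nfkbia, Tnfaip3, B2m and H2-D1 were chosen after their values were seen. The 3′ UTRs came from GENCODE M21, with 520 genes matched through RefSeq synonyms. The 11 alternatives were no replicate block, all 9 samples, RLE and upper quartile scaling, no filter on low counts, CPM of at least 1 in all 3 samples of a hairpin, DESeq2 1.42.0, limma voom 3.58.1, and leaving out each replicate number. Some genes that the rule names are not reported here.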

Additional observations from a re-analysis of the deposited data

How the results depend on the processing

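The numbers of genes that differed kept within 1.5 times under all 11 alternatives: 5790 to 7974 genes in all, against 7800. Without the replicate block, that is without pairing the libraries, 5790 genes were called (2851 higher and 2939 lower), and 5785 of them were also called with it, all in the same direction. DESeq2 called 6415 genes, and leaving out 1 replicate number gave 6622 to 7141. Rela was not called under any of them. Of the 152 other named genes, 144 kept their call without the block, 149 with DESeq2, 151 without replicate 1, 151 without replicate 2 and all 152 under the other 7 alternatives. Calls lost without the block, beside Cdkn1a, were those of C3ar1, Ptx3, Emr1, C1qb, Nes, Col10a1 and Lpl; DESeq2 lost Ifih1, Trim25 and Parp9, and Col11a2 was lost without replicate 1. None of these 152 genes reversed its direction, and genes called both in the main fit and under an alternative kept theirs. Directions of other genes that lost their call were not counted. The median difference of the interferon list turned from 0.33 to -0.16 without replicate 1, and its higher members numbered 29 without replicate 2, 20 without replicate 3, 23 with no filter, 4 without the block and 1 with DESeq2. Each hairpin has 3 libraries, so small differences rest on few residual degrees of freedom (2 before moderation).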
